A study of Homo sapiens with 2 samples.

Results

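The 43 gene symbols examined name the folding machinery of the endoplasmic reticulum (ER), the ER-associated degradation (ERAD) pathway and the regulators of both. Of these symbols 42 had a row in the gene count table, which lists 60671 genes. The remaining symbol, VIMP, is the older name of SELENOS, which is counted once. All 42 genes had at least 10 counts over both libraries, as had 23446 genes in all. RNA was sequenced from C4-2B cells, a human castration-resistant prostate cancer line, after vehicle or after (R)-9b, a small-molecule inhibitor of the tyrosine kinase ACK1. The labels give 1 µM (R)-9b overnight, in a treatment text that stands on both samples, and the RNA sequencing methods name neither dose nor time. The group of each sample comes from its own treatment label, and 1 library was made for each condition. The vehicle is not named for these libraries (the paper names DMSO for other experiments on these cells), and no genetic change beyond the line itself is named for either group. The labels call the cells breast cancer, but the 8 prostate epithelial markers had between 15362 and 297728 counts, whereas the 6 breast epithelial markers had between 0 and 34, with 2 of them at 0 in both libraries. The 5 immune markers had at most 31 counts and the 5 stromal and endothelial markers at most 2004.

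Proteins that enter the secretory pathway fold in the ER with the help of the chaperone HSPA5, its J-domain partners, disulfide isomerases and the lectin chaperones. Proteins that fail to fold are drawn out by ERAD and degraded in the cytosol. When unfolded proteins accumulate, the sensors IRE1 (gene ERN1), ATF6 and PERK (gene EIF2AK3) start the unfolded protein response, which raises transcription of many of these same genes. Secretory cells such as prostate epithelium depend on this machinery.

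All 42 genes were lower in the (R)-9b library than in the vehicle library. The median log2 ratio was −0.88, a 1.84-fold lower level, and single genes ranged from −2.36 for HSPA5 to −0.09 for EDEM3. The vehicle library had 65207444 gene counts in total and the (R)-9b library 57653965, and ratios were scaled with the TMM method. Levels are given as CPM, counts brought to a common library size. Over all genes compared the median log2 ratio was −0.0049. The exact (Clopper-Pearson) 95% interval of the ratio lay wholly below 1 in 42 of 42 genes, against 31.1% of all genes compared, and wholly above 1 in none of the 42, against 29.8%. Past 2-fold, the whole interval lay below a ratio of 0.5 in 18 of the 42 genes, against a background of 3.44%, and above a ratio of 2 in 0, against 4.20%. Narrow intervals come with many counts, so the 1285 protein-coding genes at or above the members' median level were counted as well. The members at that level are among them. Of the 1285, 3.97% were lower past 2-fold, 50.5% had an interval below 1, and the median log2 ratio was −0.03. The intervals cover counting error only and compare 2 libraries, not 2 conditions, and the spread between cultures was not measured. No p-value is given for this reason. Fewer cells of a type and less RNA per cell cannot be told apart in bulk RNA.

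**Figure D1:**
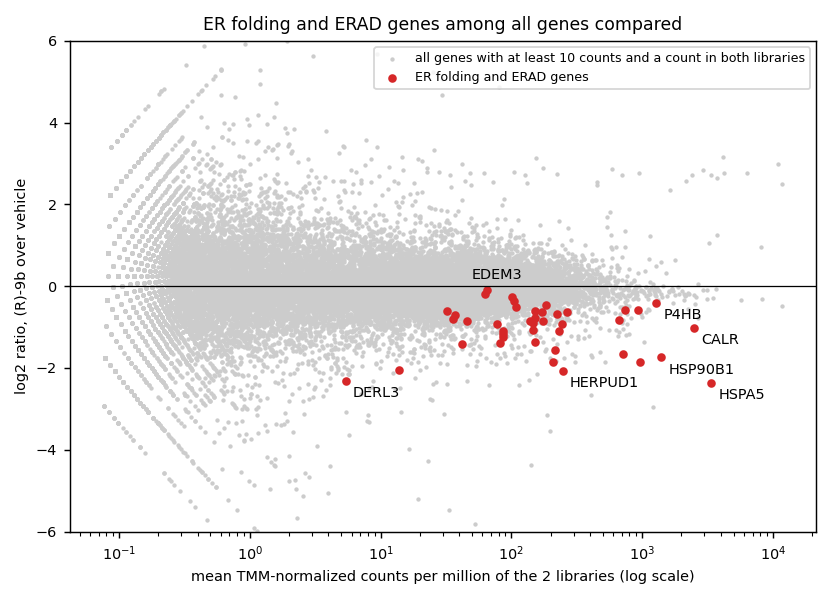
Mean TMM-normalized CPM of the 2 libraries (x axis, log scale) against the log2 ratio of (R)-9b to vehicle (y axis). Grey points are genes with at least 10 counts and a count in both libraries, a few of which lie beyond the range drawn, and red points are the 42 ER folding and ERAD genes, all of which lie below 0.

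Together the 42 genes held 2.41% of all gene counts after vehicle (95% interval 2.40 to 2.41) and 0.971% after (R)-9b (95% interval 0.969 to 0.974). Their summed counts were 1568799 and 560026, a normalized level 2.38-fold lower. HSPA5 alone supplied 24.1% of the members' counts in vehicle and 11.2% in (R)-9b. Without HSPA5 the log2 ratio of the sums was −1.02, and without HSPA5, CALR and HSP90B1 it was −0.93, compared with −1.25 for all 42. The lower sum was therefore not that of the 3 most counted genes alone. The share of counts from mitochondrially encoded genes was 1.49% in vehicle and 9.54% in (R)-9b. Whether their larger share bears on these ratios was examined only through the scaling, and TMM without them left 18 genes lower past 2-fold.

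Genes differ in length, so levels were compared between members only per kilobase of exon, as normalized CPM. HSPA5 and CALR stood highest in vehicle, at 1453 and 1237 CPM per kilobase, followed by HSP90B1 at 458 and PDIA4 at 331. In (R)-9b CALR came first at 612, ahead of HSPA5 at 284, P4HB at 208 and SEC61A1 at 158. At the other end ERO1B went from 4.15 to 1.01 CPM per kilobase and DERL3 from 2.37 to 0.476. Among 19874 protein-coding genes with a length, SDF2L1 moved from rank 141 to 481, HERPUD1 from 486 to 2406 and SEL1L from 1296 to 4328. The order of the members by level therefore changed, with HSPA5 above CALR in vehicle and below it in (R)-9b.

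**Figure D2:**
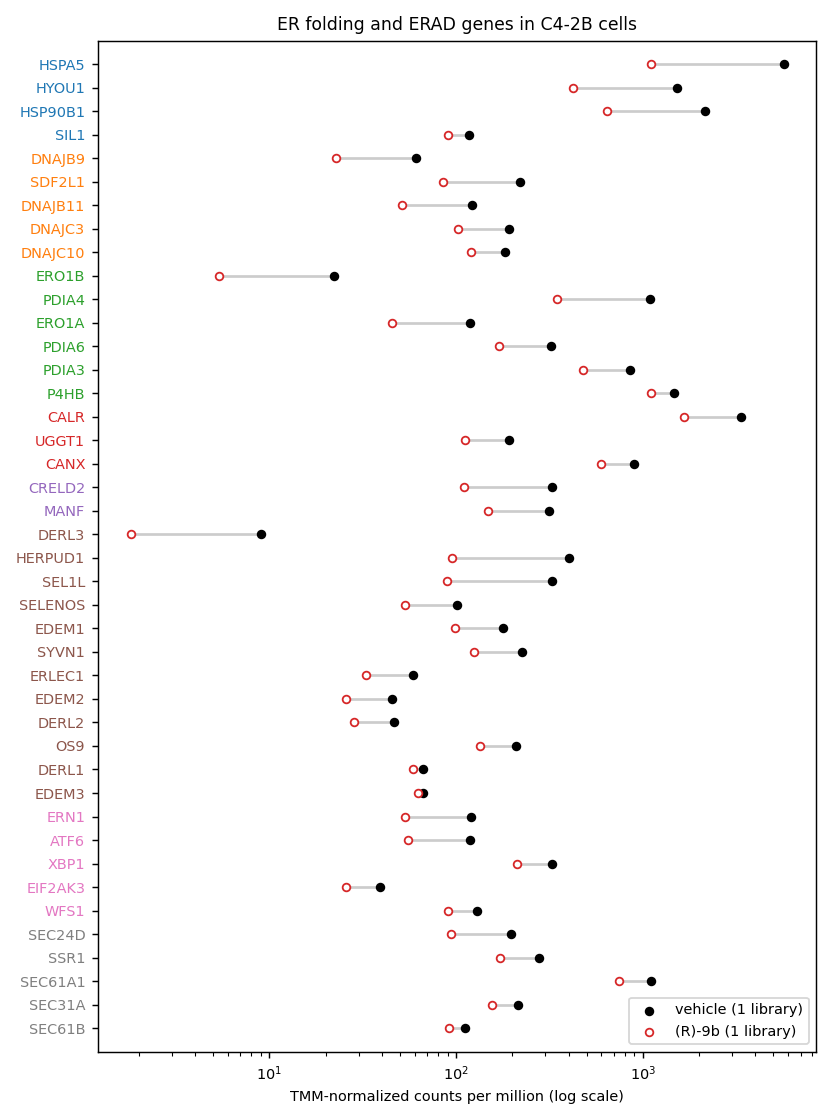
TMM-normalized CPM (x axis, log scale) of the 42 genes in the vehicle library (black points) and the (R)-9b library (red circles), with gene names coloured and ordered by role. Every red circle lies to the left of its black point, and the gap is widest for HSPA5, DERL3 and HERPUD1.

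Among the HSP70 and HSP90 chaperones and their exchange factor, 3 of 4 genes were lower past 2-fold and the median log2 ratio was −1.79. HSPA5 (ENSG00000044574, BiP, the main HSP70 of the ER lumen) lies on the minus strand at chr9:125234853-125241330 in the GENCODE 29 annotation of GRCh38. It had 377976 counts in vehicle and 62583 in (R)-9b, a log2 ratio of −2.36 (95% interval −2.37 to −2.34). By level per kilobase it ranked 7 of the protein-coding genes in vehicle and 85 in (R)-9b. HSP90B1 (GRP94, the HSP90 of the ER) had 143310 and 36342 counts (log2 ratio −1.74), and HYOU1 (an HSP110-type chaperone that also acts as an exchange factor for HSPA5) had 101310 and 23860 (log2 ratio −1.85). These 3 abundant chaperones were all more than 3-fold lower. SIL1, the other exchange factor for HSPA5, had 7830 and 5134 counts, and its log2 ratio of −0.37 was the smallest of the group. A pseudogene named for HSPA5 carried 5115 and 869 counts, equal to 1.35% and 1.39% of the counts of HSPA5. Only uniquely aligned reads were counted, so reads that fit both copies equally would be missing from each.

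The J-domain cochaperones bring substrates to HSPA5 and speed its ATP hydrolysis. With SDF2L1, which has no J domain but works with DNAJB11, they made a group of 5 with a median log2 ratio of −1.25, and 3 were lower past 2-fold. DNAJB9 (ERdj4), which also holds IRE1 inactive, had 4040 counts in vehicle and 1281 in (R)-9b (log2 ratio −1.42, 95% interval −1.51 to −1.33). SDF2L1 had 14704 and 4817 counts (log2 ratio −1.37). For DNAJB11 (ERdj3) itself the counts were 8072 and 2882 (log2 ratio −1.25), although 23.2% of its exon bases are shared with other annotated genes. The intervals of DNAJB9 and SDF2L1 overlapped. DNAJC3 (p58IPK, an inhibitor of PERK) had 12709 and 5765 counts (log2 ratio −0.90), and DNAJC10 (ERdj5, a disulfide reductase that serves ERAD) had 12133 and 6755 (log2 ratio −0.61). Both were lower, but neither passed 2-fold.

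In the group that makes and rearranges disulfide bonds, 3 of 6 genes were lower past 2-fold and the median log2 ratio was −1.15. The oxidases that recharge the isomerases were among the lowest. ERO1B had 1482 counts in vehicle and 305 in (R)-9b (log2 ratio −2.04, 95% interval −2.23 to −1.86), and ERO1A had 7866 and 2568 (log2 ratio −1.38). The isomerases spread widely. PDIA4 (ERp72) had 72242 and 19507 counts (log2 ratio −1.65), PDIA6 had 21359 and 9550 (log2 ratio −0.92), and PDIA3 (ERp57, the partner of the lectin chaperones) had 56654 and 26978 (log2 ratio −0.83). P4HB, the classical protein disulfide isomerase and a subunit of prolyl 4-hydroxylase, had 97739 and 62427 counts. Its log2 ratio of −0.41 (95% interval −0.42 to −0.39) lay far from that of PDIA4. Per kilobase P4HB ranked 97 in vehicle and 125 in (R)-9b, whereas PDIA4 ranked 84 and 317. For PDIA6, 25.2% of the exon bases are shared with ATP6V1C2, and 2 pseudogenes of PDIA3 held 7.0% and 7.2% as many counts as PDIA3 itself.

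The lectin chaperone cycle retains glycoproteins until they are folded. Of its 3 members only CALR (calreticulin) was lower past 2-fold, with 223613 counts in vehicle and 93856 in (R)-9b. Its log2 ratio was −1.01 and its interval, −1.026 to −1.004, ended just past 2-fold. The call of CALR was lost with halved counts, with upper-quartile scaling and with estimated transcript counts. Those estimated counts were only 0.0129 and 0.0146 per gene count of CALR. It ranked 9 per kilobase in vehicle and 39 in (R)-9b. CANX (calnexin, the membrane-bound counterpart) had 59391 and 33486 counts (log2 ratio −0.59). UGGT1, which re-glucosylates unfolded glycoproteins so that they bind the lectins again, had 12794 and 6313 (log2 ratio −0.78). CRELD2 and MANF are small ER proteins that are secreted under ER stress, and both were lower past 2-fold. CRELD2 went from 21657 to 6218 counts (log2 ratio −1.56) and MANF from 20811 to 8313 (log2 ratio −1.09).

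Among the 12 ERAD genes the median log2 ratio was −0.85, with the widest range of any group, and 3 passed 2-fold. HERPUD1, a scaffold of the ubiquitin ligase complex, had 26626 counts in vehicle and 5359 in (R)-9b (log2 ratio −2.08, 95% interval −2.12 to −2.03). SEL1L, the adaptor that holds the ligase SYVN1 (HRD1) in place, had 21612 and 5049 (log2 ratio −1.86), while SYVN1 had 14945 and 7037 (log2 ratio −0.85). The adaptor was thus 3.63-fold lower and its ligase 1.80-fold lower, with intervals far apart.

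The derlins, membrane proteins of the retrotranslocation channel, differed widely among themselves. DERL3 had 599 and 102 counts (log2 ratio −2.32, 95% interval −2.63 to −2.01), DERL2 had 3083 and 1603 (log2 ratio −0.71), and DERL1 had 4434 and 3308 (log2 ratio −0.18). DERL3 was the least expressed member per kilobase in both libraries, and 77.0% of its exon bases are shared with SMARCB1, so its value is uncertain. The mannosidase-like EDEM proteins, which mark glycoproteins for ERAD, also differed. EDEM1 had 11885 and 5564 counts (log2 ratio −0.86), EDEM2 had 3017 and 1456 (log2 ratio −0.81), and EDEM3 had 4438 and 3537 (log2 ratio −0.09, 95% interval −0.15 to −0.03). EDEM1 and EDEM2 had overlapping intervals and that of EDEM3 lay apart from both. The remaining ERAD genes lay between these ends. The lectins OS9 and ERLEC1, which read the trimmed glycans, had log2 ratios of −0.63 and −0.85, with 13864 and 3931 counts in vehicle and 7584 and 1854 in (R)-9b. SELENOS, a selenoprotein that recruits the extracting ATPase, had 6714 and 3017 counts (log2 ratio −0.92).

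**Figure D3:**
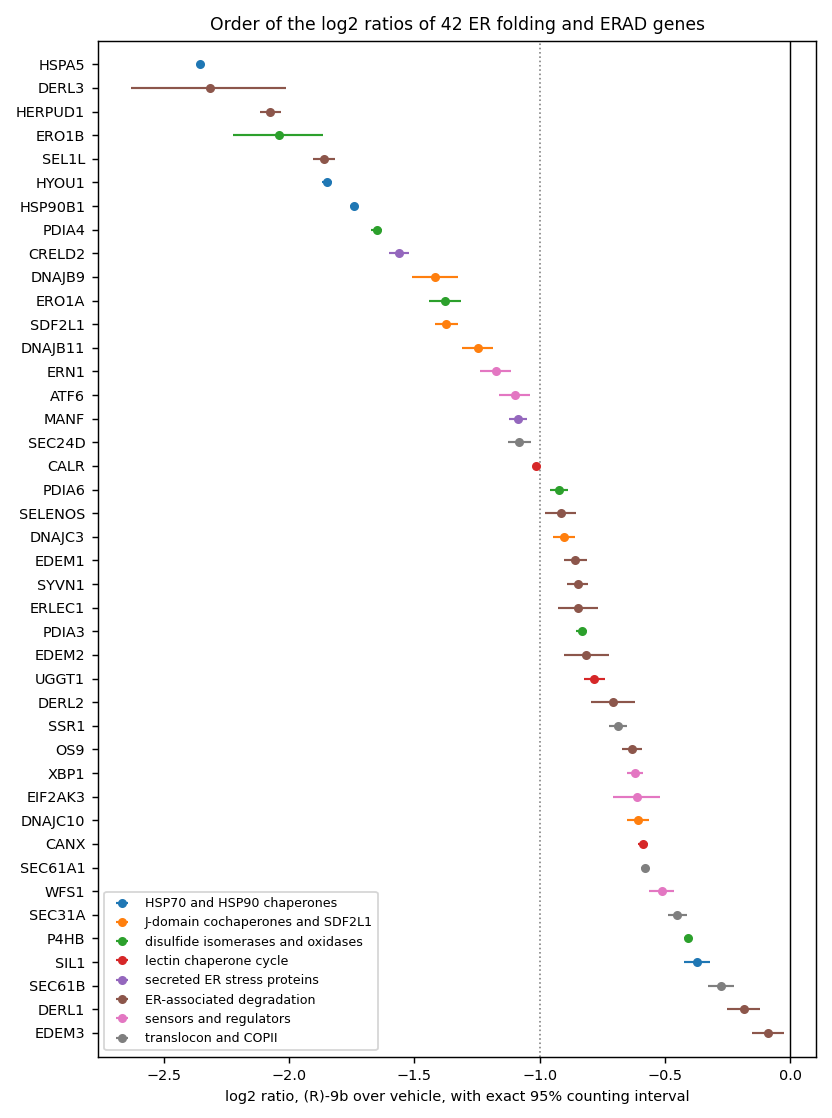
Log2 ratio of (R)-9b to vehicle (x axis) of the 42 genes in order, coloured by role, with exact 95% counting intervals as bars and a dotted line at 2-fold lower. The 18 genes from HSPA5 to CALR have whole intervals to the left of the dotted line, and EDEM3 lies nearest 0.

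In the order of the 42 log2 ratios, 7 of the 41 neighbouring pairs had intervals that did not overlap. With the counts halved, since both mates of a pair may have been counted, 3 of these pairs remained apart, HYOU1 from HSP90B1, HSP90B1 from PDIA4 and CALR from PDIA6. For the other neighbours the intervals overlapped under one or both of these counts, and the difference itself was not tested. HSPA5, DERL3 and HERPUD1 led the order, although HSPA5 was among the most and DERL3 among the least expressed genes of the group.

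The sensors and regulators had a median log2 ratio of −0.62. ERN1, the sensor that cuts XBP1 mRNA, had 8029 counts in vehicle and 3013 in (R)-9b (log2 ratio −1.18), and ATF6, the sensor that is released as a transcription factor by proteolysis, had 7889 and 3120 (log2 ratio −1.10). Both were lower past 2-fold, unlike the others. EIF2AK3, whose kinase product slows translation, had 2613 and 1450 counts (log2 ratio −0.61, 95% interval −0.71 to −0.52). WFS1, a membrane glycoprotein involved in calcium balance and ATF6 turnover, had 8565 and 5091 (log2 ratio −0.51). XBP1, the transcription factor downstream of IRE1, had 21693 and 11972 (log2 ratio −0.62).

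XBP1 mRNA gains its active reading frame when IRE1 removes a short intron of 26 bases, so its transcripts were examined separately. XBP1 lies on the minus strand of chromosome 22. In XBP1-207 the intron spans chr22:28796124-28796149 (GENCODE 29, GRCh38), inside the coding sequence, and XBP1-202 places it at chr22:28796122-28796147 with the same joined sequence. Both forms are printed with 20 bases on either side, in the sense of the mRNA, because the transcripts compared below are grouped by them. Capitals mark the 26 bases as XBP1-202 places them, and XBP1-207 places them 2 bases further upstream.
XBP1 with the 26 bases: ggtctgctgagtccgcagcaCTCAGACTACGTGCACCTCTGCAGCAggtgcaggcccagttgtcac
XBP1 without the 26 bases: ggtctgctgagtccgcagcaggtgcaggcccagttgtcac

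The authors deposited estimated counts per transcript, and the values here cover the 6 XBP1 transcripts in that table. XBP1-201, whose annotation keeps the 26 bases, was not analysed here and is missing from every sum of other transcripts. The table held 0.167 estimated counts per gene count of XBP1 in vehicle and 0.0962 in (R)-9b, under the 0.2 required of the other members, against a median of 0.363 over genes with at least 1000 counts. Transcripts without the 26 bases, XBP1-202 and XBP1-207, summed to 2934 estimated counts in vehicle and 698 in (R)-9b. Their normalized level was 3.53-fold lower, a log2 ratio of −1.82. XBP1-207 accounted for 2502 and 698 of these, and XBP1-202 was listed at 432 and 0. The protein-coding transcripts that keep the bases, XBP1-203 and XBP1-204, summed to 432 and 211 estimated counts (log2 ratio −0.78). These 2 differed from each other. XBP1-203 had 315 and 108 (log2 ratio −1.30, against −1.59 for XBP1-207), and XBP1-204 had 117 and 104 (log2 ratio 0.08). All 4 transcripts in the table other than XBP1-202 and XBP1-207 summed to 683 and 454 (log2 ratio −0.34). The log2 ratio of all 6 together was −1.40, whereas that of the gene's counts was −0.62, so the table and the gene counts cannot be set against each other for XBP1. Within the table, the form without the intron was in sum lower by more than the sum of the other transcripts held there. An interval on its sums as if they were counts runs from −1.94 to −1.70, but how surely reads were assigned between transcripts is not covered by it.

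**Figure D4:**
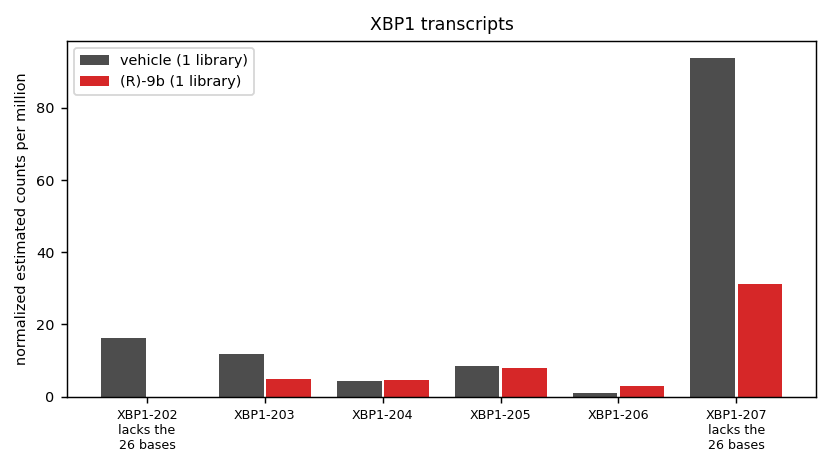
Normalized estimated CPM (y axis, from 0) of the 6 XBP1 transcripts in the authors' table in the vehicle library (grey bars) and the (R)-9b library (red bars). XBP1-207, which lacks the 26 bases, has the tallest bars and the largest drop, and XBP1-202 has no bar in (R)-9b.

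The 5 genes of transport into and out of the ER, through the translocon and COPII vesicles, had the median log2 ratio nearest 0 of the 8 groups, −0.58, and 1 passed 2-fold. SEC24D, a cargo adaptor of the COPII coat, had 13154 counts in vehicle and 5273 in (R)-9b (log2 ratio −1.08), a call lost with upper-quartile scaling, whereas SEC31A, of the outer coat, had 14192 and 8809 (log2 ratio −0.45). SEC61A1, the pore of the translocon, had 73988 and 41987 counts (log2 ratio −0.58). Its small partner SEC61B had 7416 and 5196 (log2 ratio −0.28), and SSR1, of the translocon-associated TRAP complex, had 18420 and 9705 (log2 ratio −0.69). No interval in this group reached 1.

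The promoters of the members were searched for the elements through which the unfolded protein response is known to act. In the ER stress response element, NF-Y binds the CCAAT end and ATF6 or XBP1 the CCACG end. RefSeq promoters (GRCh38.p14, 250 bases before to 50 after the start) were matched by symbol for 38 of the 42 genes, of which 6 had more than one. PDIA3, DERL1, DERL3 and SEC24D had none in the table. On either strand, the element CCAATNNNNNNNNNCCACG was found in 8 of the 38, namely CALR, CANX, CRELD2, ERO1B, HSP90B1, HSPA5, PDIA6 and XBP1. That is 21.1% of the members, against 0.0916% of all 27305 symbols in the promoter table. The second element, ATTGGNCCACG, was found in HERPUD1, HYOU1 and SDF2L1, or 7.89%, against 0.0696%. HYOU1 held 2 copies, and HSP90B1 held 2 of the first element. Only exact matches were counted, so near copies are neither counted nor marked in the sequences, that of HSPA5 included. The sequences that follow show the promoter of HSPA5, the lowest gene, and the elements of 5 other members on both strands, all in the sense of the gene, with the element in capitals.
HSPA5, chr9:125241344-125241593, minus strand, the 250 bases before the start: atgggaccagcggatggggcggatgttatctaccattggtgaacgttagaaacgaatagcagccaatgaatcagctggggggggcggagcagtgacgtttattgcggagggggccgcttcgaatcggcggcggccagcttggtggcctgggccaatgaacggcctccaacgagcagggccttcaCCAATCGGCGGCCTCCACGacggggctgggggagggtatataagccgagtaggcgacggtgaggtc
XBP1, chr22:28800593-28800631, minus strand: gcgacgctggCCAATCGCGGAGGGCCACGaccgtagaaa
PDIA6, chr2:10812843-10812881, minus strand: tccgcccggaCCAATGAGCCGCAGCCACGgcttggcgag
CALR, chr19:12938374-12938412, plus strand, element on the opposite strand: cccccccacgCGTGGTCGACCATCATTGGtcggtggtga
HERPUD1, chr16:56932015-56932045, plus strand, second element: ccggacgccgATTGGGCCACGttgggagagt
SDF2L1, chr22:21642104-21642134, plus strand, second element on the opposite strand: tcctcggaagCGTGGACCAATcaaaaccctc

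The members with these elements spanned most of the range of ratios. Those 8 with the first element had a median log2 ratio of −1.29, from −2.36 for HSPA5 to −0.59 for CANX. The 30 without the first element, among them the 3 with the second, had a median of −0.85, from −2.08 to −0.09. HERPUD1, HYOU1 and SDF2L1 had a median of −1.85. The members were listed for their function, so a high share of known target elements among them is no separate result about (R)-9b. Of the genes compared that are no members, 9 held the first element. Their median log2 ratio was −0.38, and 6 had an interval below 1 and 1 above, against 31.1% and 29.8% of all genes compared. ALG12, among these 9, shares 168 exon bases with the member CRELD2. They were taken for the motif and are named after their values were seen. FICD, which modifies HSPA5, had 3526 and 1034 counts (log2 ratio −1.53), and SERP1, which is associated with the translocon, had 38072 and 17450 (log2 ratio −0.89). TMEM120A went the other way, with 2530 and 3054 counts (log2 ratio 0.51). The lowest and highest of the 9 had few counts, SYNPO with 25 and 7 (log2 ratio −1.60) and NLRP4 with 4 and 8 (log2 ratio 1.24). The second element was held by 11 other genes, 7 with an interval below 1 and 4 above, with a median of −0.15. TGACGTGG, the core of the element bound by XBP1 and ATF6 without NF-Y, was in DNAJC10 and HYOU1, or 5.26% against 0.927%, and in HYOU1 it overlaps the second element. TGATGCAAT, the core bound by CEBP and ATF factors together, was in 0 of the 38, against 0.293%. CCAAT alone was in 81.6% of the members and 39.7% of all symbols.

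Lists of 158 other genes with related work were then counted, to place the 42 genes beside their neighbours in the cell. Of these 158, 63.9% had an interval below 1 and 28.5% above, 10 were lower and 2 higher past 2-fold, and the median log2 ratio was −0.21. The 22 other ERAD genes divided almost evenly, with 12 below and 10 above and a median of −0.10, from RNF185, an ER ubiquitin ligase, at −0.85 and RNF5 at −0.48 to TRIM13 at 0.44 and UBE2G2, an ERAD ubiquitin-conjugating enzyme, at 0.55. None of them passed 2-fold in either direction. Among 20 other disulfide and prolyl isomerases 12 were below and 5 above, with a median of −0.21. ERP44, which retains the ERO1 oxidases in the ER, was lower past 2-fold at −1.10, AGR2 was at −0.74, and PDIA2 and FKBP2 were at 0.68 and 1.82. FKBP2 had only 9 counts in vehicle and 27 in (R)-9b.

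The lists for transport and glycosylation leaned towards lower values. In the 21 other translocon, signal recognition and signal peptidase genes, 18 were below and 2 above, with a median of −0.29, and the extremes were SSR2 at −0.80, TRAM1 at −0.74, SRP14 at 0.10 and SEC61A2 at 0.47. The 15 N-glycosylation and glucose-trimming genes had a median of −0.32, with 11 below and 4 above, and their extremes were MAGT1 at −0.67, TMEM258 at −0.64, MOGS at 0.35 and KRTCAP2 at 1.81. KRTCAP2 had 72 counts in vehicle and 214 in (R)-9b. The 19 other COPII and retrieval genes had a median of −0.38, with 15 below and 2 above, and included MCFD2 at −0.75 and its partner LMAN1 at −0.60, with SAR1A at 0.17 and SEC31B at 3.12. SEC31B had only 16 counts in vehicle and 118 in (R)-9b. None of these 3 lists had a gene lower past 2-fold. The 17 genes of ER shape and membrane insertion had 11 below and 4 above, with a median of −0.18, and ran from RTN3 at −0.87 and EMC2 at −0.54 to REEP5 at 0.17 and CKAP4 at 0.34.

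In the 19 transcription factors, proteases and PERK-arm genes of the unfolded protein response, 7 were lower past 2-fold. DDIT3 (CHOP) was at −4.37 and ATF3 at −3.55, while MBTPS2, a protease that releases ATF6, was at 0.26 and MAP3K5 at 0.42. The median of that list was −0.29, with 10 genes below and 6 above. The 16 cytosolic chaperones had a median of 0.10, with 5 below and 10 above. DNAJB1 was at −1.15 and HSPA8, the cytosolic relative of HSPA5, at −0.24, with DNAJA1 at 0.34 and CCT6A, a chaperonin subunit, at 0.37. Of the 9 mitochondrial chaperones 7 were below and 2 above. HSPA9, the mitochondrial relative of HSPA5, was lower past 2-fold at −1.08 and the protease LONP1 was at −0.90, with HSPE1 at 0.14 and GRPEL1 at 0.29. The median of the mitochondrial list was −0.21. None of the 9 lists had all its genes below 1.

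**Figure D5:**
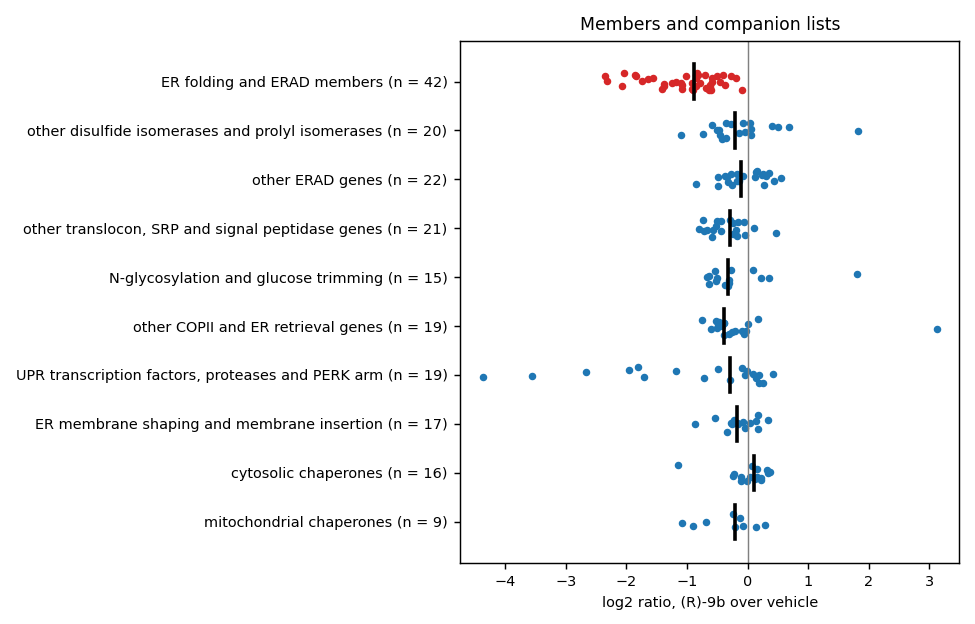
Log2 ratio of (R)-9b to vehicle (x axis) of each of the 42 members (red) and of the genes of 9 other lists (blue), with a black bar at each median and points spread vertically only to be seen. The members' median lies at −0.88, and those of the other lists lie between −0.38 and 0.10.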

How the data were processed

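The authors aligned paired-end poly-A RNA reads to GRCh38 with STAR. The paper and the submitters' processing notes give different STAR versions (2.5.1a in the notes, which also list featureCounts 1.4.6-p5 and Salmon 0.8.2). The authors deposited counts of uniquely aligned reads per gene, not normalized, the same values as CPM and as moderated log2 CPM, and estimated counts per transcript. The strand setting of the counting is not given in the sources used here.

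The gene list, its roles, the companion lists and all rules were chosen with earlier results of these data known. Repeated gene lines (200) were dropped, and comparisons took genes whose 2 libraries summed to 10 counts or more. Counts were scaled by TMM (edgeR 4.0.16, R 4.3.3; factors 1.02 for vehicle and 0.979 for (R)-9b). Exact 95% intervals of the ratio used scipy 1.17.1 under Python 3.11.15, tables pandas 2.3.3 and numpy 2.4.6, and figures matplotlib 3.10.9. A gene was called past 2-fold when its whole interval lay beyond a ratio of 2 or 0.5. Of counts from 1 to 20, 72.2% in vehicle and 70.3% in (R)-9b were even, as when both mates are counted, so the intervals are too narrow, and halved counts were tried. The steps were tested on simulated data that held counting error only, so spread between cultures and counting of both mates were not covered. Every member was described, with the 2 lowest and 2 highest genes of each companion list. Transcripts were described when they had at least 10 estimated counts and 10% of their gene in either library. Protein sequences of the members were not analysed here. Other scalings, minimum counts, value tables and added spread were tried as alternatives.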

Additional observations from a re-analysis of the deposited data

How the results depend on the processing

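All 42 genes kept their direction under every scaling, minimum count and deposited gene table tried. The median log2 ratio was −0.94 with total counts, with the deposited CPM and with the moderated log2 CPM, and total counts moved the median of all genes from −0.0049 to −0.065. When a spread between cultures with a coefficient of variation of 0.1 was assumed, 10 genes were lower past 2-fold, against 2.14% of all genes, and 38 had an interval below 1. With 0.3, chosen after seeing the data, 2 were lower past 2-fold, against 0.926%, and 13 had an interval below 1. For intervals below 1 under the alternatives, no share over all genes is given. Upper-quartile scaling and halved counts each left 41 intervals below 1, without EDEM3. With upper-quartile scaling 16 genes (without CALR and SEC24D) were lower past 2-fold, against 3.28% of all genes. With halved counts 17 (without CALR) were, against 2.28%. Estimated transcript counts covered 41 of the 42 genes, since ERO1B had 0 in both libraries. They gave shares of 1.76% and 0.728%, in place of 2.41% and 0.971%. Per gene count, CALR had 0.0129 and 0.0146 estimated counts and HSP90B1 0.0528 and 0.0534, so these shares miss most of both genes. Here 16 genes were lower past 2-fold, against 3.42% of all genes compared in this way. Of the earlier calls 15 were kept and those of ATF6 and CALR were lost, while XBP1 was newly called at −1.40. EDEM3, at 4.16, was the 1 gene called higher. The transcript table held 8 estimated counts for EDEM3 in vehicle and 120 in (R)-9b. A limit of at least 0.2 estimated counts per gene count was also chosen after seeing the data. With it 13 of 34 were lower past 2-fold and none higher, and no share over all genes is given. Leaving mitochondrially encoded genes out of the totals gave shares of 2.44% and 1.07%. No paired analysis was possible because each condition had 1 library.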

Other observations

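Transcripts of the other members were compared where the table held at least 0.2 estimated counts per gene count, which left 34 genes with 56 described transcripts. Of these transcripts 54 were lower in (R)-9b and 2 were higher. No share over all transcripts is given, and all of these genes were also lower by gene counts. SYVN1-204, annotated as retaining an intron, had 147 estimated counts in vehicle and 273 in (R)-9b, and its share of the SYVN1 transcripts went from 4.74% to 15.3%. WFS1-203, annotated as protein-coding, had 154 and 306, with shares of 4.54% and 15.5%. Both reached 10% of their gene only in (R)-9b, where they were higher, so the rule of selection favoured a rise. SYVN1 had 0.208 estimated counts per gene count in vehicle, close to the limit, and 0.254 in (R)-9b. For EIF2AK3 the share of the protein-coding EIF2AK3-201 went from 62.0% to 87.7%. EIF2AK3-202, a processed transcript, had 317 and 37.6 estimated counts and shares of 25.2% and 5.37%. This transcript reached 10% of its gene only in vehicle, where it was higher. PDIA4-204 held 67.4% of the PDIA4 transcripts in vehicle and 77.4% in (R)-9b. Shares moved by at least 10 points for 11 of the 56, with no such count given for transcripts of other genes. These transcripts were chosen after their values were seen, with 1 library per condition, and none of the differences was tested.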
